A study of Homo sapiens with 8 samples.

Results

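The Notch pathway was followed through 10 genes in Caco-2/15 cells, a human colon cancer line whose cultures acquire traits of absorptive enterocytes once confluent. The genes were chosen by symbol: the receptors NOTCH1, NOTCH2 and NOTCH3, the ligands JAG1, JAG2, DLL1 and DLL4, the target genes HES1 and HEY1, and ATOH1, a transcription factor of the secretory lineage. All 10 were found among the 58302 gene IDs of the count tables, and 9 of them passed the filter on low counts that left 18240 genes for testing. ATOH1 did not pass it.

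RNA was sequenced from Z1flag cells, in which CRISPR-Cas9 editing put a Flag tag on one allele of H2AFZ (the histone variant H2A.Z.1), and from Z2flag cells, tagged in the same way at H2AFV (H2A.Z.2). Each line was taken subconfluent, before the cultures closed, and postconfluent, at 7 days after confluence, with 2 libraries per group and 8 in all. Every group therefore carries a heterozygous Flag allele, and untagged parental cells were not analysed here. The sources used here do not say whether each line is 1 clone or whether experiments 1 and 2 are separate cultures, so p-values measure the spread between these samples. The series addresses what each H2A.Z isoform contributes to enterocyte-like differentiation.

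Notch receptors are cut by proteases when a ligand of the Jagged or Delta-like family on a neighbouring cell pulls on them, and the released intracellular part enters the nucleus and turns the DNA-binding protein RBPJ into an activator. HES1 and HEY1 encode repressors of the bHLH class that are switched on this way. In the intestinal crypt, Notch signalling through HES1 is known to repress ATOH1 and so to hold progenitors in the absorptive lineage, while cells with ATOH1 become goblet, Paneth or enteroendocrine cells.

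Promoter sequences of HES1, NOTCH1 and NOTCH3 are given from RefSeq (GRCh38.p14), because these genes moved together with confluence and because HES1 is the textbook RBPJ target. Each is the 250 bases before the annotated start, written 5′ to 3′ on the gene's strand, with capitals marking the RBPJ core letters TGGGAA.

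HES1 (chr3:194135898-194136147, plus strand): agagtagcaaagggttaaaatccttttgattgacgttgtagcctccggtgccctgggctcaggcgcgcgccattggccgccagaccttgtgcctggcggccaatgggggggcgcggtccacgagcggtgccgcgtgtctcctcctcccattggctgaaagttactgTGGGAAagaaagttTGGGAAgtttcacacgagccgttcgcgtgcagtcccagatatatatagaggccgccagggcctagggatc

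NOTCH1 (chr9:136546049-136546298, minus strand): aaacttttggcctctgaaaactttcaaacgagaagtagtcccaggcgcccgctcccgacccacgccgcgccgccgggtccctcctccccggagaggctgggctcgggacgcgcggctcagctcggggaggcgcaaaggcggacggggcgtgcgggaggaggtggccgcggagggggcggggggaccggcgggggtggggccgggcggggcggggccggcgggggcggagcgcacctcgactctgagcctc

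NOTCH3 (chr19:15200996-15201245, minus strand): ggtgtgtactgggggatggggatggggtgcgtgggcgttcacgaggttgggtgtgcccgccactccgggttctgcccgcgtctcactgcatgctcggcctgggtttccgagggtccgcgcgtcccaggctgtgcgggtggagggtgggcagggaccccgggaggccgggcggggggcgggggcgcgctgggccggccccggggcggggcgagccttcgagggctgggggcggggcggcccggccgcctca

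The letters TGGGAA were searched on both strands in the promoters of 8 of the 10 members. DLL1 and the target gene HEY1 were not searched, so nothing is known here of their promoters. HES1 held 2 matches, at bases 84 to 79 and 70 to 65 before the start, and the first lies within the longer form GTGGGAA at bases 85 to 79. The windows of the other 7 members searched held 0. Of all 35116 promoters in the table, 20.8% held TGGGAA at least once, 2.9% held it 2 or more times, and 5.43% held GTGGGAA. HES-family repressors are known to bind the letters CACGNG and CACNAG, which overlap wherever CACGAG occurs. HES1 held 4 and 3 matches, and NOTCH3 held 1 match to each at the same 6 letters. ATOH1 held 3 and 1, JAG2 held 2 and 0, and DLL4 held 1 and 0. NOTCH1, NOTCH2 and JAG1 held 0 of either. Among all promoters, 26.7% held CACGNG and 32% held CACNAG at least once. For 2 or more matches the shares were 10.4% and 6.32%. A match is a description of letters and not evidence of binding.

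Postconfluent cells held more RNA of the receptors NOTCH1 and NOTCH3 and of the targets HES1 and HEY1, in each line. The ligands and NOTCH2 did not pass the test in either line. By edgeR's quasi-likelihood test, 4 of the 9 members tested were called higher in Z1flag cells, the same 4 in Z2flag cells, and 0 were called lower in either. Confluence moved a large share of all genes: 40.5% of the genes tested were called in Z1flag cells (21.3% higher, 19.1% lower), 37.6% in Z2flag cells (18.3% higher, 19.3% lower), and 14.4% were called higher in both lines. For the mean change over the lines the same 4 members were called, against 55.4% of all genes (27.8% higher, 27.5% lower). The median of the members' log2 changes over both lines was 0.75, beside -0.01 for all genes tested. Fewer cells of a type and less RNA per cell cannot be told apart in such bulk libraries.

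**Figure D1:**
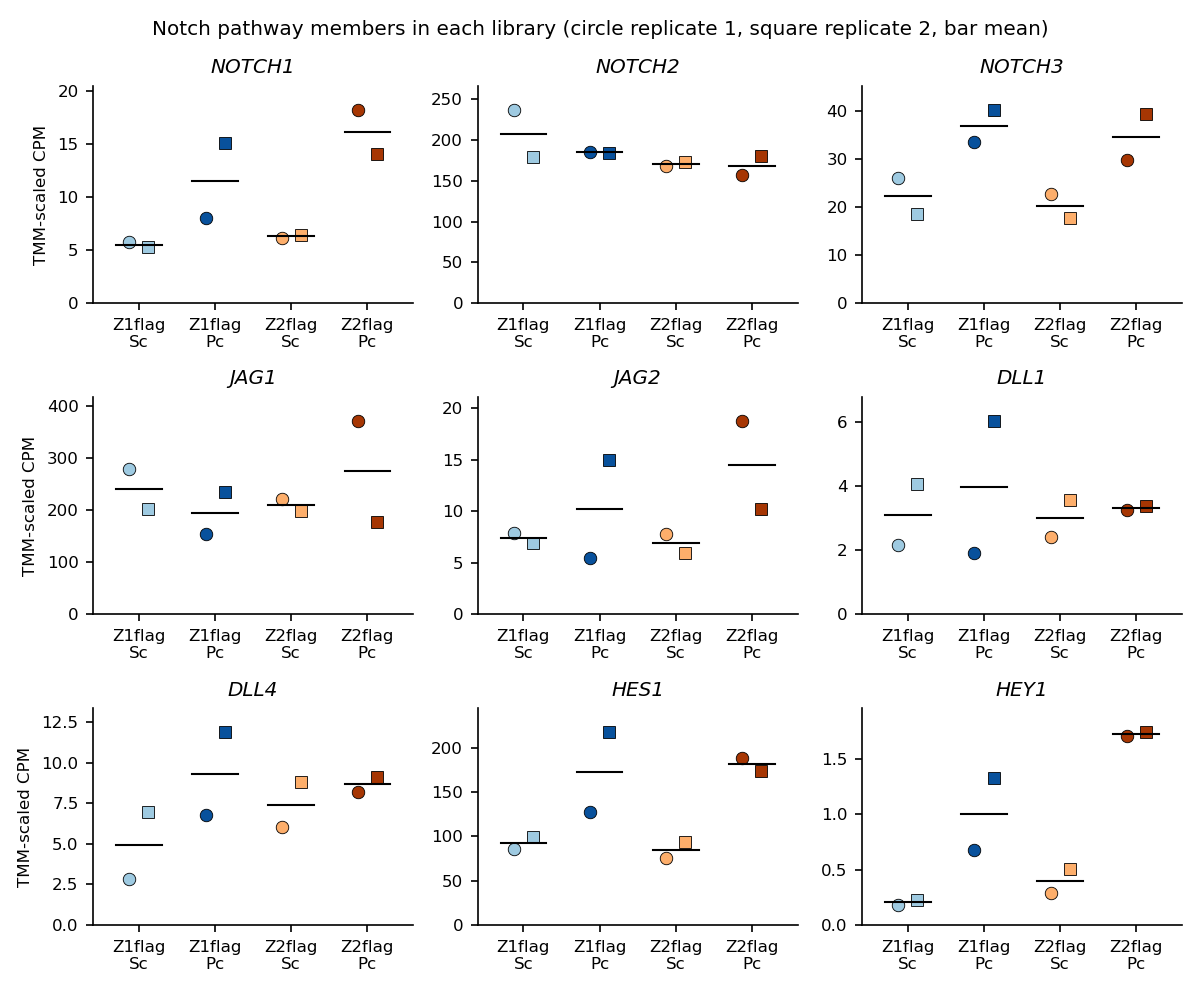
TMM-scaled CPM (counts per 1000000) of the 9 members with any counts, by line and state; each point is 1 library (circle replicate 1, square replicate 2) and the bar is the mean of 2. NOTCH1, NOTCH3, HES1 and HEY1 have all 4 postconfluent points above all 4 subconfluent points, while the other 5 genes overlap.

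Depth was 17063826 to 40881682 gene counts per library, and reads outside annotated features made up 20.6% to 32.0% of the reads listed. This share was highest in the Z1flag replicate 1 libraries, at 32.0% subconfluent and 31.4% postconfluent. Its part in the results was not tested other than by leaving out those libraries. Ambiguous reads made up 5.39% to 5.69% of the reads listed subconfluent and 6.17% to 7.86% postconfluent. For reads not aligned uniquely this was 6.59% to 6.89% and 7.84% to 10.3%, so neither measure overlapped between the states. In Z2flag cells depth was 40881682 and 35645383 gene counts subconfluent and 19540632 and 17063826 postconfluent. In Z1flag cells the depths of the states overlapped. What these differences did to the changes was not tested. Of 10 colon epithelium markers 9 were tested, and over both lines 5 were called higher and 3 lower. EPCAM stood at 531 ± 61.6 CPM subconfluent and 730 ± 77.9 CPM postconfluent and VIL1 at 566 ± 56.2 and 512 ± 96.9 CPM (SD, n = 4 each). The cadherin CDH17 rose from 333 ± 27.0 to 607 ± 160 CPM (log2 change 0.86). The keratins KRT8 (6750 ± 601 to 2330 ± 1070 CPM, -1.56) and KRT18 (4130 ± 497 to 1100 ± 553 CPM, -1.94) and the transcription factor HNF4A (463 ± 46.5 to 201 ± 45.7 CPM, -1.22) fell. KRT20, CDX1 and LGALS4 were below 1 CPM in the mean of each state: KRT20 went from 0.0155 to 0.567 CPM, CDX1 from 0.0130 to 0.116 CPM, and LGALS4, which was called higher, from 0.270 to 0.985 CPM. Of 7 absorptive enterocyte markers listed, 6 were tested and all 6 rose over both lines. APOA4, an apolipoprotein of enterocytes, had a log2 change of 5.52 (SE 0.29, adjusted p = 2.33e-06). The brush border genes MEP1A (4.58), CDHR2 (5.45) and ANPEP (4.39) rose by similar log2 changes.

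Levels are TMM-scaled CPM, that is, counts per 1000000 after correcting library sizes for composition. NOTCH1 (ENSG00000148400, chr9:136494433-136545786, GRCh38) stood at 5.72 and 5.27 CPM in subconfluent Z1flag replicates 1 and 2 and at 7.98 and 15.1 CPM in the postconfluent ones. In Z2flag cells it stood at 6.16 and 6.42 CPM subconfluent and at 18.2 and 14.1 CPM postconfluent. The subconfluent libraries lay close together and all postconfluent ones lay above them, with Z1flag replicate 1 lowest. In Z1flag cells the log2 change was 1.06 (SE 0.32, adjusted p = 0.0245, edgeR). In Z2flag cells it was 1.36 (SE 0.32, adjusted p = 0.00853), and the mean of both lines was 1.21 (SE 0.23, adjusted p = 0.00133), a 2.32-fold higher level.

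NOTCH3 (ENSG00000074181, chr19:15159038-15200981), a receptor known from vascular mural cells and also present in epithelial tumours, was higher than NOTCH1 per length of exon in every library. Its subconfluent levels were 26.0 and 18.4 CPM in Z1flag and 22.7 and 17.7 CPM in Z2flag cells. Postconfluent levels were 33.6 and 40.1 CPM in Z1flag and 29.7 and 39.2 CPM in Z2flag cells. The states did not overlap, but the gap between the highest subconfluent and the lowest postconfluent library was small. By edgeR, the log2 change in Z1flag cells was 0.73 (SE 0.25, adjusted p = 0.0403). The Z2flag change was 0.77 (SE 0.25, adjusted p = 0.0346), and the mean over the lines 0.75 (SE 0.18, adjusted p = 0.00492).

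NOTCH2 (ENSG00000134250, chr1:119911553-120069626) was the most abundant receptor per length and was not called. It stood at 237 and 179 CPM in subconfluent and 185 and 184 CPM in postconfluent Z1flag cells, and at 169 and 173 CPM in subconfluent and 157 and 181 CPM in postconfluent Z2flag cells. Subconfluent Z1flag replicate 1 was the highest library and postconfluent Z2flag replicate 1 the lowest, and the states overlapped. The log2 change over both lines was -0.09 (SE 0.14, adjusted p = 0.594, edgeR). NOTCH2 has near-identical partial copies, so its count is uncertain by what the counting assigned to them. The copy NOTCH2NLA had 310 counts over all libraries against 37552 for NOTCH2, and 3 other listed copies had no symbol match.

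Per length, the receptors kept 1 order in both states. With CPM divided by the exon length of GENCODE release 29 in kilobases, the subconfluent means were 11.3 for NOTCH2, 2.26 for NOTCH3 and 0.568 for NOTCH1 (n = 4 each). The postconfluent means were 10.5, 3.80 and 1.33 in the same order. The ranges of neighbours in this order did not overlap in either state. For the exon models the authors counted over, the sources used here give nothing.

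NOTCH2 made up a smaller part of the receptor RNA after confluence. Its share of the summed receptor level per length was 79.9% ± 1.99 subconfluent and 67.2% ± 3.01 postconfluent (SD, n = 4 each), a difference of -12.6 percentage points. All 4 postconfluent shares (65.5% to 71.8%) lay under all 4 subconfluent ones (76.9% to 81.1%). A two-sided exact permutation test over the 8 libraries gave p = 0.0286, the smallest it can give, and the comparison was chosen after the values were seen. The test treats the libraries of both lines as exchangeable. The share is made from the same levels as the NOTCH1 and NOTCH3 calls, so it is not separate evidence. NOTCH3 took 14.7% to 18.5% before and 22.2% to 25.6% after confluence, and NOTCH1 took 3.17% to 4.83% before and 5.00% to 12.3% after.

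**Figure D2:**
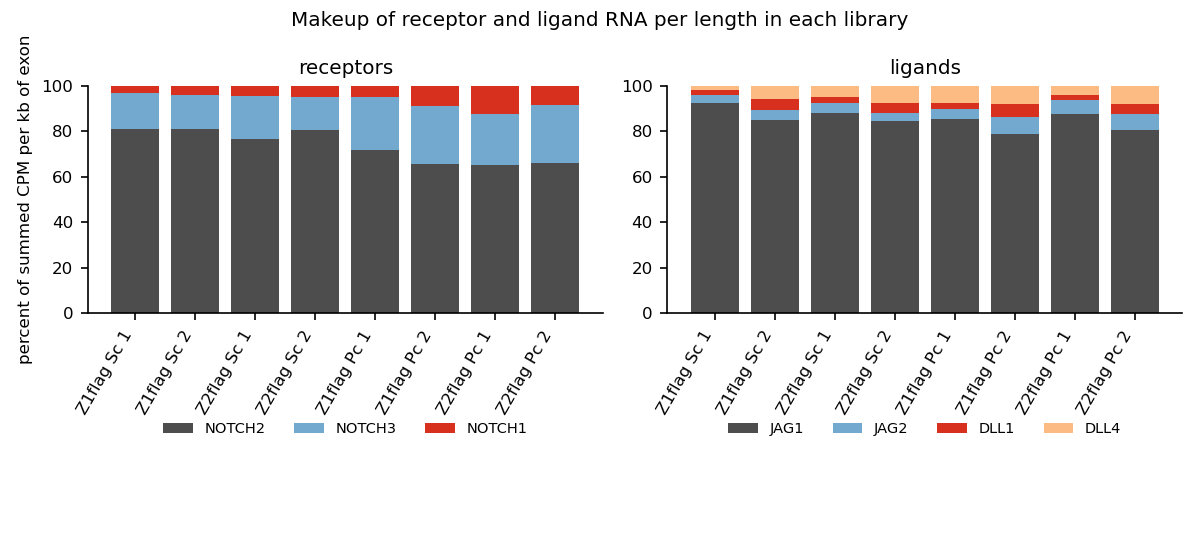
Percent of the summed CPM per kilobase of exon held by each receptor (left) and each ligand (right) in each of the 8 libraries, as stacked bars. The NOTCH2 segment is 76.9% to 81.1% in the subconfluent and 65.5% to 71.8% in the postconfluent libraries, while the JAG1 segments of the states overlap.

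Among the 4 member ligands, 0 were called in either line or over both with all libraries, though JAG2 and DLL4 passed under some alternatives given with them. Of 2 other ligands tested, outside the members, 1 was called higher in Z1flag cells and over both lines, and 0 in Z2flag cells. JAG1 (ENSG00000101384, chr20:10637684-10673999), a ligand of the Jagged type, was the most abundant per length. It stood at 279 and 203 CPM in subconfluent and 155 and 235 CPM in postconfluent Z1flag cells. In Z2flag cells it stood at 221 and 198 CPM subconfluent and 372 and 178 CPM postconfluent. The highest and the lowest library were both postconfluent replicate 1 libraries, of Z2flag and Z1flag cells in turn. The log2 change by edgeR was -0.30 in Z1flag cells (SE 0.34, adjusted p = 0.497) and 0.39 in Z2flag cells (SE 0.34, adjusted p = 0.379). The mean of both was 0.04 (SE 0.24, adjusted p = 0.884).

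JAG2 (ENSG00000184916, chr14:105140981-105168824), the other Jagged ligand, was at 7.84 and 6.87 CPM in subconfluent and 5.41 and 15.0 CPM in postconfluent Z1flag cells. Z2flag cells held 7.75 and 5.97 CPM subconfluent and 18.7 and 10.2 CPM postconfluent. The Z2flag states did not overlap, which holds for 36.3% of all genes tested in that line, while in Z1flag cells postconfluent replicate 1 lay under both subconfluent libraries. The log2 change over both lines was 0.77 (SE 0.32, adjusted p = 0.061, edgeR), so JAG2 was not called. In Z1flag cells the change was 0.46 (SE 0.45, adjusted p = 0.438). In Z2flag cells it was 1.08 (SE 0.45, adjusted p = 0.0818), and it was called in 6 of the 17 alternatives run there, among them DESeq2 (adjusted p = 0.0272) and the fit of only the Z2flag libraries (adjusted p = 0.0276). Over these 17 the adjusted p ranged from 0.00575 to 0.40. The mean change was called in 7 of the 16 alternatives run for that change, among them DESeq2 (adjusted p = 0.02) and the fit without postconfluent Z1flag replicate 1 (log2 change 1.12, adjusted p = 0.00244). The adjusted p ranged from 0.00244 to 0.218 over the 16.

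DLL4 (ENSG00000128917, chr15:40929333-40939073), a Delta-like ligand known from endothelium and from intestinal crypts, was at 2.84 and 6.98 CPM in subconfluent and 6.77 and 11.9 CPM in postconfluent Z1flag cells. Z2flag cells held 6.01 and 8.84 CPM subconfluent and 8.21 and 9.14 CPM postconfluent. The states overlapped in both lines. By edgeR, Z1flag cells gave a log2 change of 0.91 (SE 0.43, adjusted p = 0.116). Z2flag cells gave 0.23 (SE 0.43, adjusted p = 0.702), and the mean over the lines was 0.57 (SE 0.30, adjusted p = 0.134). Without subconfluent Z1flag replicate 2 the change over both lines was 0.96 (adjusted p = 0.0271), and without postconfluent Z1flag replicate 1 it was 0.81 (adjusted p = 0.0355).

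DLL1 (ENSG00000198719, chr6:170282206-170306565) had the lowest mean level per length of the 4 member ligands. It stood at 2.16 and 4.05 CPM in subconfluent and 1.89 and 6.02 CPM in postconfluent Z1flag cells. In Z2flag cells the levels were 2.40 and 3.57 CPM subconfluent and 3.25 and 3.37 CPM postconfluent. In Z1flag cells replicate 2 was above replicate 1 in both states, and the states overlapped. The log2 change over both lines was 0.24 (SE 0.37, adjusted p = 0.60, edgeR). DLL1 overlaps FAM120B on the other strand, and since the strand setting of the counting is unknown here, its value is uncertain.

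JAG1 held most of the summed level per length of the 4 member ligands in every library, with 84.5% to 92.3% subconfluent and 79.1% to 87.6% postconfluent. The mean share was 87.5% ± 3.55 before and 83.2% ± 3.96 after confluence (SD, n = 4 each), a difference of -4.32 points with p = 0.2 by the two-sided exact permutation test. Mean CPM per kilobase was 24.2 for JAG1, 1.30 for DLL4, 1.11 for JAG2 and 0.944 for DLL1 in subconfluent cells. After confluence it was 25.3, 1.89, 1.93 and 1.13 in the same gene order, and the ranges of DLL4, JAG2 and DLL1 overlapped in both states.

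HES1 (ENSG00000114315, chr3:194136145-194138732), the target gene with the RBPJ letters shown above, was about doubled after confluence. Z1flag cells held 85.9 and 99.7 CPM subconfluent and 128 and 218 CPM postconfluent. Z2flag cells held 75.7 and 94.0 CPM subconfluent and 189 and 173 CPM postconfluent. All postconfluent libraries lay above all subconfluent ones, and Z1flag replicate 1 was the lowest of them. Z1flag cells showed a log2 change of 0.90 (SE 0.26, adjusted p = 0.0195, edgeR). In Z2flag cells it was 1.09 (SE 0.26, adjusted p = 0.00879), and over the lines 0.99 (SE 0.18, adjusted p = 0.00118), a fold of 1.99. Per length, HES1 had the highest mean of the 10 members in each state, at 43.1 and 85.8 CPM per kilobase.

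HEY1 (ENSG00000164683), a second bHLH repressor downstream of Notch, had the largest change of the members and the lowest mean level per length of the 9 that were tested. Its counts were 4 and 6 in subconfluent and 18 and 26 in postconfluent Z1flag cells, and 12 and 18 in subconfluent and 31 and 29 in postconfluent Z2flag cells. In CPM this was 0.180 and 0.229 before and 0.681 and 1.33 after confluence in Z1flag cells. The Z2flag libraries stood at 0.285 and 0.506 before and 1.71 and 1.74 after. No postconfluent library fell to the level of a subconfluent one. The Z1flag log2 change was 2.24 (SE 0.57, adjusted p = 0.0117, edgeR). That of Z2flag cells was 2.12 (SE 0.49, adjusted p = 0.00819), and the mean 2.18 (SE 0.38, adjusted p = 0.000848). With so few counts its size is known poorly, and these SEs, derived from the F statistic, can be too small for counts this low.

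ATOH1 (ENSG00000172238, chr4:93828753-93830964), which HES1 is known to repress, had 0 counts in all 8 libraries. Over all 205778323 gene counts, 0 counts allow a level of up to 0.0146 CPM, taking 3 counts as the limit, and up to 0.176 CPM in the shallowest library. These limits cover counting error only. ATOH1 was therefore not detectable at this depth in either state, and no change can be given for it. Of the other secretory markers, the enteroendocrine factors NEUROG3 and NEUROD1 also had 0 counts, the goblet factor SPDEF had 8 counts subconfluent and 12 postconfluent, and the goblet mucin MUC2 had 1 and 5. Not all secretory markers were at such levels. SCGN, a calcium-binding protein of enteroendocrine cells, rose from 2.10 ± 0.973 to 9.23 ± 2.37 CPM (log2 change 2.20, SE 0.29, adjusted p = 0.000168, edgeR). Of the 3 enteroendocrine markers tested, 1 was higher and 1 lower over both lines, with a median log2 change of -0.7. Of the 3 Paneth markers tested, 1 was higher and 1 lower over both lines. The phospholipase PLA2G2A rose (3.51, SE 0.41, adjusted p = 8.22e-05, edgeR), from 22 to 154 counts. The defensin DEFA5 fell (-4.72, SE 0.99, adjusted p = 0.00318, edgeR), from 49 counts to 1. Of the 4 goblet markers tested, 3 were higher and 0 lower over both lines. The secreted goblet lectin ZG16 rose (log2 change 3.06, SE 0.36, adjusted p = 8.88e-05, edgeR), as did AGR2, a chaperone of mucin-producing cells (1.12, SE 0.16, adjusted p = 0.000226, edgeR).

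**Figure D3:**
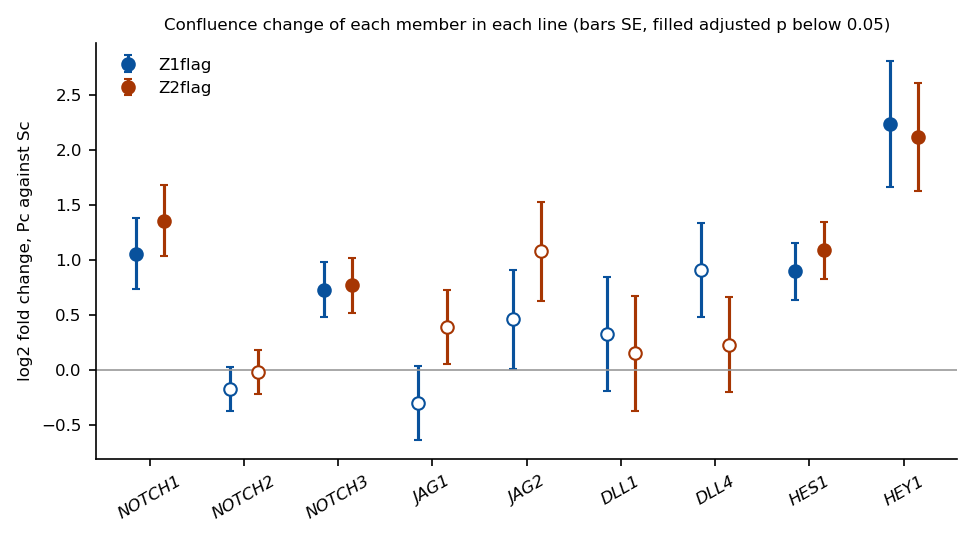
Log2 fold change, postconfluent against subconfluent, of the 9 tested members in Z1flag (blue) and Z2flag (orange) cells, with bars of 1 SE; filled points have adjusted p below 0.05 by edgeR. NOTCH1, NOTCH3, HES1 and HEY1 are filled in both lines, between 0.73 and 2.24, and the others are open.

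For NOTCH1, NOTCH3, HES1 and HEY1 all postconfluent libraries of both lines were above all subconfluent ones, which holds for 25.1% of the genes tested. The calls over both lines held for these 4 in each alternative in which they were tested, with log2 changes of 0.99 to 1.48 for NOTCH1, 0.62 to 0.98 for NOTCH3, 0.82 to 1.22 for HES1 and 1.95 to 2.46 for HEY1. HEY1 is not tested under the filter of at least 5 CPM. Within a line, calls were lost when single libraries were left out, and not every lost call came with a smaller change. Without subconfluent Z1flag replicate 1 the Z1flag log2 change was 1.10 for NOTCH1, against 1.06 with all libraries. For NOTCH3 it was 0.98 against 0.73, and for HES1 it was lower, at 0.77 against 0.90. In Z1flag cells 0 members were called without subconfluent replicate 1, 1 (DLL4) without subconfluent replicate 2 and 1 (HEY1) without postconfluent replicate 2, against 4 with all libraries. The share of all genes called in these fits was 18.9%, 22.4% and 44.6%, against 40.5%. In Z2flag cells 0 were called without subconfluent replicate 1 and 2 (HES1 and HEY1) without subconfluent replicate 2, where 17.3% and 14.9% of all genes were called, against 37.6%. A fit of the 4 Z1flag libraries alone called only HEY1 of the members and 29.7% of all genes. Each fit that leaves a group with 1 library assumes that it varies like the other groups.

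The directions of these 4 members did not change in any of the fits. Without subconfluent Z1flag replicate 1 the Z1flag changes were 1.10 for NOTCH1 (adjusted p = 0.109), 0.98 for NOTCH3 (0.0609), 0.77 for HES1 (0.15) and 2.07 for HEY1 (0.082) on the log2 scale. Without subconfluent Z2flag replicate 1 the Z2flag changes were 1.31 for NOTCH1 (adjusted p = 0.0684), 0.94 for NOTCH3 (0.0837), 0.93 for HES1 (0.0925) and 1.74 for HEY1 (0.0999). Without postconfluent Z1flag replicate 2 the Z1flag change of NOTCH1 fell to 0.53 and that of HES1 to 0.46, and without postconfluent replicate 1 they were 1.49 and 1.27. Postconfluent Z1flag replicate 1 was the lowest postconfluent library for 7 of the 9 members with counts, all but NOTCH2 and NOTCH3.

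**Figure D4:**
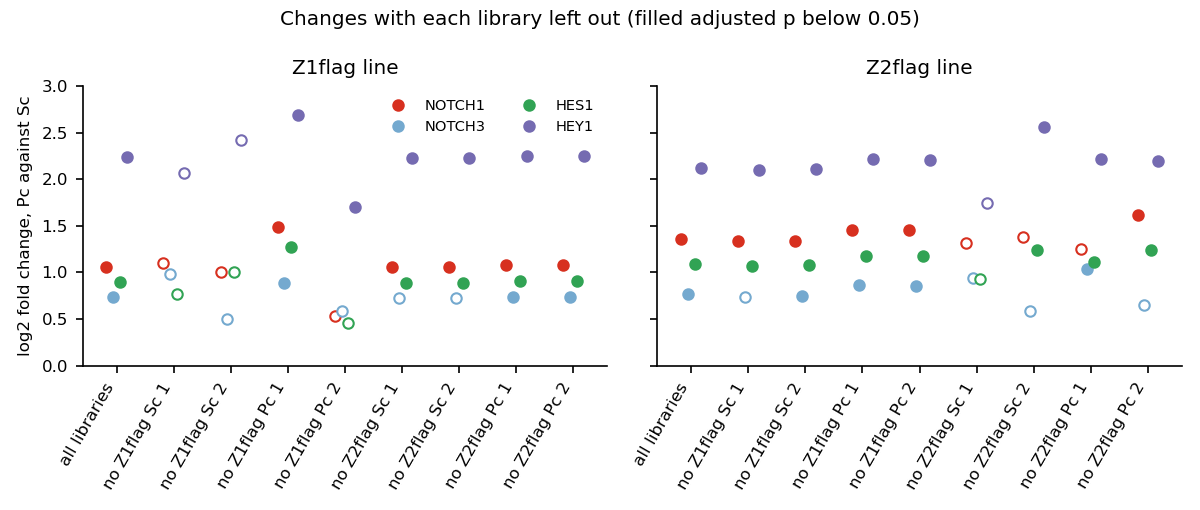
Log2 fold change of the 4 called members within Z1flag (left) and Z2flag (right) cells with all libraries and with each of the 8 left out; filled points have adjusted p below 0.05 by edgeR. All points stay above 0, and the open ones mark calls lost without that library, such as those of Z2flag cells without their subconfluent replicate 1. A lost call need not come with a smaller change.

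The size of the confluence change was compared between the lines by the interaction, the Z2flag change minus the Z1flag change. No member was called, and neither was any of the 18240 genes by edgeR or DESeq2, with 902 and 799 genes at an unadjusted p under 0.05. Without the filter on low counts, edgeR called 41 genes, none of them a member. The largest differences were those of JAG1, 0.70 higher in Z2flag cells (SE 0.48, adjusted p = 0.799), and of DLL4, at -0.69 (SE 0.61, adjusted p = 0.819). For the called members the interaction was 0.30 (SE 0.45) for NOTCH1, 0.04 (SE 0.35) for NOTCH3, 0.20 (SE 0.36) for HES1 and -0.11 (SE 0.70) for HEY1. Differences of these sizes were not resolved with 2 libraries per group, which does not show that the lines act alike.

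Levels between the lines were compared within each state, and 0 members were called in subconfluent or postconfluent cells. Over all genes edgeR called 0 in each, with 195 and 1308 at an unadjusted p under 0.05, and DESeq2 called 0, with 152 and 1208. Without the filter on low counts edgeR called 2 and 221 genes, none of them a member. HEY1 had the largest difference in both states, 0.91 (SE 0.59, adjusted p = 1) subconfluent and 0.80 (SE 0.47, adjusted p = 0.642) postconfluent, higher in Z2flag cells. Without postconfluent Z1flag replicate 2, NOTCH1 (1.07, adjusted p = 0.0394) and JAG2 (1.48, adjusted p = 0.0409) were called higher in postconfluent Z2flag than Z1flag cells, in a fit that called 2252 of 19866 genes, or 11.3% (6.02% higher).

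Other genes of the pathway were taken from lists by role, with 84 genes listed, 81 in the files and 69 tested. Over both lines 19 were called higher and 14 lower, with a median log2 change of 0.16 beside -0.01 for all genes. In Z1flag cells the numbers were 14 and 8, and in Z2flag cells 15 and 12. Of all genes tested, 27.8% were called higher and 27.5% lower over both lines, 55.4% in all. In Z1flag cells this was 21.3% and 19.1%, and in Z2flag cells 18.3% and 19.3%. The counts by role below stand beside these shares. Under upper-quartile scaling, which moved the median of all genes to 0.18, 26 of these pathway genes were higher and 9 lower over both lines.

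Among enzymes that modify the receptor, POGLUT1, which adds glucose to its EGF repeats, fell from 31.3 ± 1.04 to 7.72 ± 2.02 CPM (SD, n = 4 each), a log2 change of -2.05 (SE 0.16, adjusted p = 1.22e-05, edgeR). RFNG, a Fringe glycosyltransferase, rose by 0.90 (SE 0.17, adjusted p = 0.00166). In all, 1 of 5 tested genes of that role was higher and 2 were lower. Of 4 genes for ligand endocytosis in the signal-sending cell, 2 were higher and 0 lower. The ubiquitin ligase MIB2 went from 9.11 ± 2.67 to 21.8 ± 0.743 CPM (log2 change 1.28, SE 0.19, adjusted p = 0.000322, edgeR). MIB1, the most abundant gene of this role, stood at 307 ± 29 CPM subconfluent and 319 ± 50.1 CPM postconfluent.

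Of 9 genes for cutting the receptor, 2 were higher and 3 lower. PSEN2, a catalytic subunit of gamma-secretase, fell from 34.8 ± 5.23 to 10.4 ± 2.13 CPM (log2 change -1.75, SE 0.20, adjusted p = 6.53e-05). ADAM10, the protease that makes the first cut at the cell surface, was at 317 ± 49.1 and 356 ± 97.3 CPM and was not called.

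The nuclear complex that carries the Notch signal held 0 called genes of 7 in either line. Of all genes, 40.5% were called in Z1flag and 37.6% in Z2flag cells, and with 7 genes a difference from these shares was not tested. Over both lines 1 of the 7, the acetyltransferase KAT2B, was lower (log2 change -0.78, SE 0.27, adjusted p = 0.0299, edgeR). RBPJ itself stood at 48.5 ± 4.38 CPM subconfluent and 57.0 ± 10.7 postconfluent (log2 change 0.23, SE 0.14, adjusted p = 0.204). Of 11 corepressors, which act with RBPJ or with the HES proteins, 3 were higher and 3 lower. CIR1 (1.28, SE 0.17) and TLE2 (1.21, SE 0.19) rose, and CTBP1 (-0.73, SE 0.14) and TLE4 (-0.80, SE 0.17) fell, with adjusted p of 0.000148, 0.000509, 0.00127 and 0.00239. Of 9 tested genes of receptor turnover 1 was higher and 2 lower, among them DTX3L, a ubiquitin ligase of the Deltex family (-0.92, SE 0.18, adjusted p = 0.00163).

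Other genes listed here as targets, by family or by reports, moved both ways, with 5 of 12 tested higher and 3 lower. Being on this list does not show that Notch controls a gene in these cells. BHLHE40, a bHLH repressor also known to respond to hypoxia and stress, rose from 3.53 ± 0.871 to 50.0 ± 23.6 CPM (log2 change 3.80, SE 0.38, adjusted p = 3.74e-05). HES4 went from 5.47 ± 0.830 to 38.8 ± 22.7 CPM (2.78, SE 0.35, adjusted p = 0.000122). HES2 (2.98, SE 0.44, adjusted p = 0.000335) and HES7 (4.42, SE 0.73, adjusted p = 0.000654) rose from low levels, HES7 from 2 counts in all subconfluent libraries to 36 in all postconfluent ones. HEYL, of the same family as HEY1, fell from 2.90 ± 0.339 to 1.19 ± 0.312 CPM (-1.27, SE 0.27, adjusted p = 0.00273).

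ID1, an inhibitor of bHLH factors, fell from 65.9 ± 4.27 to 18.1 ± 13.3 CPM (-1.94, SE 0.37, adjusted p = 0.00162), and the cell cycle gene CCND1 fell from 325 ± 36.5 to 214 ± 19.3 CPM (-0.61, SE 0.14, adjusted p = 0.00425). NRARP, a feedback inhibitor that Notch switches on, was at 4.86 ± 0.868 and 5.74 ± 1.37 CPM (log2 change 0.23, SE 0.24, adjusted p = 0.436), and HES5 had 0 counts. Of 8 tested secretory lineage factors 3 were higher and 0 lower. SOX4 went from 51.2 ± 5.63 to 109 ± 7.10 CPM (1.08, SE 0.14, adjusted p = 0.000136) and KLF4, a factor of goblet and surface epithelial cells, from 2.35 ± 0.739 to 11.1 ± 4.79 CPM (2.21, SE 0.30, adjusted p = 0.000182).

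**Figure D5:**
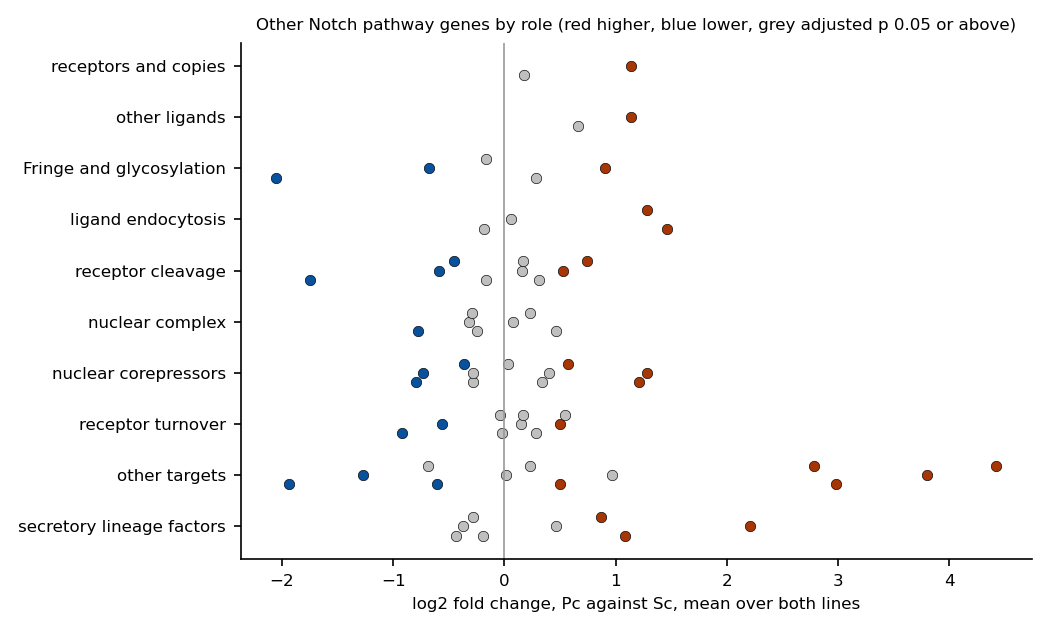
Log2 fold change over both lines of the 69 tested genes of other roles in the pathway, 1 point per gene and 1 row per role, red higher and blue lower with adjusted p below 0.05 by edgeR, grey otherwise. The 19 higher and 14 lower genes are spread over the roles, and the row of other targets holds both the largest rise (HES7, 4.42) and falls such as ID1 (-1.94).

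Markers of cells that can also express these genes were read beside them. Of 6 endothelial markers 3 were tested and all 3 rose over both lines, 3 in Z1flag and 1 in Z2flag cells. Their summed level per library was 5.27 to 11.9 CPM subconfluent and 12.6 to 24.4 postconfluent, most of it PECAM1, while KDR had 0 counts, TEK 1 and 4 and CDH5 3 and 6 in the subconfluent and postconfluent libraries. ESAM, an adhesion molecule of endothelium, rose from 0.637 ± 0.0732 to 3.32 ± 1.33 CPM. Of 6 tested fibroblast and mural markers 1, the collagen COL1A1 (log2 change 1.56), was higher and 3, PDGFRA (-3.29), COL3A1 (-2.80) and LUM (-1.94), were lower, and their sum went from 183 to 234 CPM before to 72.4 to 87.3 CPM after confluence. Leukocyte markers summed to 0.840 to 1.09 CPM before and 2.25 to 4.08 CPM after, with PTPRC at 3 counts and 0 and ITGAM higher (0.744 ± 0.167 to 2.26 ± 0.594 CPM). The part of these markers in the changes of NOTCH3 and DLL4, genes also known from vessels, was not tested.

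Pairs of members were compared by Pearson's r of log2 CPM over the 8 libraries, as a description with no test, since all share the same libraries and states. NOTCH1 and HEY1 (0.96), NOTCH1 and HES1 (0.94) and HES1 and HEY1 (0.92) were the most alike, NOTCH1 and JAG2 had 0.85, and NOTCH2 and DLL4 the lowest value (-0.72). Among 13069 other protein-coding genes, the profile most like that of NOTCH1 was PPP1R15A (r = 0.995), followed by CRYAB (0.994). For NOTCH3 these were NDRG3 (0.984) and C16orf74 (0.978), for HES1 ICAM5 (0.985) and TMEM231 (0.982), and for HEY1 APBA3 (0.983). JAG1 was most like PTPRS (0.965) and PLEKHG1 (0.963), JAG2 most like BICRA (0.983) and NECTIN2 (0.978), and DLL4 most like UQCRHL (0.977) and TRAFD1 (0.975). NOTCH2 (ATF7, 0.937 and HOXA3, 0.904) and DLL1 (ATP6V1F, 0.946 and RP9, 0.937) had lower best values.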

How the data were processed

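The authors deposited raw HTSeq counts per Ensembl gene ID for 8 stranded, rRNA-depleted, paired-end RNA-seq libraries, per the labels. STAR 2.5.2b, SAMtools, HTSeq and hg38 are named per the submitters' processing notes. The sources used here do not give the annotation, the HTSeq mode or the strand setting. HTSeq's classes of unassigned reads were left out of library sizes and tests (reads without a feature, 20.6% to 32.0%). Of 58302 IDs, 58039 were in GENCODE release 29, which gave positions and exon lengths, and 57532 had a symbol in the name table.

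The main test was edgeR 4.0.16 under R 4.3.3 (filterByExpr with minimum count 10 and minimum total 15, TMM scaling, robust quasi-likelihood F test, 4 group means, 4 residual degrees of freedom), adjusted by Benjamini-Hochberg over 18240 genes at a threshold of 0.05. The SE is the log2 change divided by the square root of F. Log2 CPM used a prior count of 2. Alternatives were RLE and upper-quartile scaling, no filter, at least 5 CPM in 2 libraries, DESeq2 1.42.0, limma 3.58.1 voom, a replicate block, only the libraries compared, and leaving out libraries. The fits were also run on simulated counts in which only a small share of genes changed. The real data changed far more widely, so that run does not bear on the calls here. Replicates of 1 group differed by more than sampling noise (chi-square per degree of freedom 13.2 to 96.1 over the groups).

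The members, lists and tests were chosen with earlier results of these data known, and the tests of family shares after their values were seen. From each list were named up to 4 genes per direction called in both lines, by adjusted p of the mean change. ADAM10, MIB1, KAT2B, RBPJ, NRARP, the genes at or near 0 counts, EPCAM, VIL1 and PECAM1 were added after their values were seen. For each member the 2 most similar genes were named. Results for 2 genes that these rules pick are not reported here.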

Additional observations from a re-analysis of the deposited data

Results flagged for a closer look

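In 18 groups, each of the 4 libraries of 1 state for 1 member, the highest and the lowest library were checked for standing apart by Dixon's test at its 95% critical value, and chance alone gives about 1 such group in 20. Both libraries that stood apart were for NOTCH2. Subconfluent Z1flag replicate 1 was the highest of the subconfluent libraries at 237 CPM, with a gap of 0.852 of the group's range. Postconfluent Z2flag replicate 1 was the lowest of the postconfluent libraries at 157 CPM, with a gap of 0.847 of the range. Each group spans both lines. The first is also the library of highest no-feature share (32.0%), whose part in this value was not tested.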

How the results depend on the processing

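The 4 calls of the change over both lines, for NOTCH1, NOTCH3, HES1 and HEY1, held under each alternative that tested them, as did the directions of the 19 other pathway genes picked by rule and their calls over both lines. Of the 887 alternative values of single members, 766 kept direction and side of the threshold, 24 lost a call, 23 gained one and 74 changed sign, the last only for changes not called with all libraries. With only the libraries compared, 1 member (HEY1) was called in Z1flag cells against 4. Leaving out each library gave 0 to 6 calls in Z1flag cells, 0 to 5 in Z2flag cells, 4 to 6 over both, 0 to 2 between the lines postconfluent, and 0 for the interaction and between the lines subconfluent. Deviations from the group means were weakly correlated between groups by experiment number (r from -0.18 to 0.178). This cannot show whether experiments were shared between groups. With the experiment number as a replicate block, 5, 4 and 5 members were called in Z1flag cells, Z2flag cells and both. DLL4 was added, at adjusted p = 0.0399 in Z1flag cells and 0.0428 over both (edgeR). Upper-quartile scaling moved the median of all genes to 0.26, 0.11 and 0.18 in Z1flag, Z2flag and both.

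Log2 changes that changed sign were as follows; for none was the cause tested. With upper-quartile scaling NOTCH2 was 0.05, 0.14 and 0.10 in Z1flag, Z2flag and both, and the NOTCH3 interaction -0.01. NOTCH2 in Z2flag cells was 0.04 with RLE scaling, 0.04 with DESeq2, 0.08 with the CPM filter and 0.05 with only the libraries compared, and over both it was 0.03 with the CPM filter. JAG1 over both was -0.01 with no filter and -0.01 with voom. Voom also gave interactions of 0.08 for DLL1 and 0.11 for HEY1 and a postconfluent line difference of 0.03 for DLL1. Without both Z1flag replicate 1 libraries, NOTCH2 was 0.07, 0.03 and 0.05 in Z1flag, Z2flag and both and JAG1 0.24 in Z1flag cells; interactions were -0.13 for NOTCH1, -0.04 for NOTCH2, -0.33 for NOTCH3, -0.02 for JAG2 and -0.01 for HES1; line differences were 0.12 for NOTCH3 and 0.03 for JAG1 subconfluent, and -0.04 for JAG2 and -0.26 for HES1 postconfluent.

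Leaving out each library gave these ranges. In Z1flag cells NOTCH2 ranged from -0.36 to 0.02, JAG2 from -0.45 to 1.06 and DLL1 from -0.73 to 0.99. In Z2flag cells NOTCH2 ranged from -0.06 to 0.17, JAG1 from -0.15 to 0.92, DLL1 from -0.13 to 0.45 and DLL4 from -0.04 to 0.52. Over both, NOTCH2 ranged from -0.20 to 0.00, JAG1 from -0.22 to 0.31 and DLL1 from -0.24 to 0.61. The interaction ranged from -0.04 to 0.92 for NOTCH1, -0.07 to 0.33 for NOTCH2, -0.23 to 0.30 for NOTCH3, -0.74 to 0.96 for DLL1, -0.08 to 0.72 for HES1 and -0.49 to 0.52 for HEY1. Subconfluent line differences ranged from -0.35 to 0.14 for NOTCH3, -0.40 to 0.05 for JAG1, -0.29 to 0.09 for JAG2, -0.43 to 0.48 for DLL1 and -0.28 to 0.03 for HES1. Postconfluent ones ranged from -0.20 to 0.00 for NOTCH2, -0.27 to 0.12 for NOTCH3, -0.10 to 0.97 for JAG1, -0.02 to 1.48 for JAG2, -0.84 to 0.86 for DLL1, -0.44 to 0.41 for DLL4 and -0.25 to 0.56 for HES1. The NOTCH2 share difference ranged from -12.0 to -14.1 points and that of JAG1 from -2.72 to -5.79. Depth limits HEY1, with 4 to 31 counts per library, and ATOH1 most.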
